A study of Mus musculus with 9 samples.

Results

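The gene set described here was p53 (Trp53) and 9 genes that p53 is known to switch on: Mdm2, Ccng1, Trp53inp1, Aen, Sesn1, Zmat3, Phlda3, Perp and Gadd45a. Every probe set whose gene symbol in the array's annotation equals one of these 10 symbols was taken, which gave 20 probe sets of 9 genes out of 45101 probe sets in all. The transcript of p53 itself was not analysed here. Mdm2 and Ccng1 had 3 probe sets each, Trp53inp1 had 2, Aen and Sesn1 had 4 each, and Zmat3, Phlda3, Perp and Gadd45a had 1 each.

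The cells were mouse pre-B cells, the stage of B cell development at which the heavy chain gene has been joined and light chain recombination begins. All of them lacked the transcription factors IRF4 and IRF8 (genotype IRF4,8 -/-), so the controls carried the deletion too. They were grown in recombinant IL-7, the cytokine that keeps pre-B cells dividing, and hybridised to Affymetrix arrays in 3 groups of 3 arrays: high IL-7 (IL7hi, 5 ng), low IL-7 (IL7lo, 0.25 ng) and high IL-7 with IRF4 put back (+IRF4). The labels disagree on whether the IL-7 amounts are per ml or per µl, do not say how IRF4 was delivered or for how long cells were cultured, and name no control treated in the same way without IRF4. Nothing in them says that replicates were separate cultures or animals, so the p-values measure the spread between arrays, which may be technical.

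p53 is a transcription factor that is held at a low level by Mdm2, a ubiquitin ligase that marks it for destruction, and that accumulates when DNA is broken or the cell is under stress. It binds DNA as a tetramer and switches on genes for cell cycle arrest, DNA repair, metabolic restraint and cell death, together with Mdm2, which closes a feedback loop. In pre-B cells the recombinase cuts DNA to join light chain gene segments, and p53 is known there as part of the response that halts or removes cells with unrepaired breaks.

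The DNA letters that p53 reads are shown first for the genes whose array values are described below. A p53 element is built from 10-base motif units, and the search used the p53 consensus for a single unit, which reads the same on both strands, over RefSeq promoters of the assembly GRCm38.p6 (250 bases before and 50 bases after each annotated start). RefSeq promoters were at hand for 7 of the 10 symbols. A unit was present in 7 of their 9 promoter windows and in 6 of the 7 genes, Mdm2, Ccng1, Gadd45a, Sesn1, Aen and Trp53, and not in that of Phlda3. The windows of Aen overlap and hold the same unit, which is counted in each. Of all 32851 promoters, 8.36% held one. Since these genes were chosen as p53 targets, the share is a description and was not tested. The 250 bases before the start are printed 5′ to 3′ on the gene's strand with the unit in capitals, and for Aen only 30 bases are given, since there the unit lies just inside a transcript from an earlier start.
Mdm2, chr10:117710759-117711008, minus strand: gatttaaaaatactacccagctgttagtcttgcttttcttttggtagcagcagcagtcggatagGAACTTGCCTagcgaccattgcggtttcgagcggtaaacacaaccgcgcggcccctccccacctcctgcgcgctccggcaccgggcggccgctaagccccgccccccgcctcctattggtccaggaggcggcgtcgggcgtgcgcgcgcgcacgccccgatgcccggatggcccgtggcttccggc
Ccng1, chr11:40755287-40755536, minus strand: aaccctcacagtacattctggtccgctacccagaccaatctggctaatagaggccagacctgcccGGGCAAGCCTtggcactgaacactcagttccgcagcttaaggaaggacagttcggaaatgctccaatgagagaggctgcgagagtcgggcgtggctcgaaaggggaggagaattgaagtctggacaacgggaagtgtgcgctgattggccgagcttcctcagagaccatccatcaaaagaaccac
Gadd45a, chr6:67037408-67037657, minus strand: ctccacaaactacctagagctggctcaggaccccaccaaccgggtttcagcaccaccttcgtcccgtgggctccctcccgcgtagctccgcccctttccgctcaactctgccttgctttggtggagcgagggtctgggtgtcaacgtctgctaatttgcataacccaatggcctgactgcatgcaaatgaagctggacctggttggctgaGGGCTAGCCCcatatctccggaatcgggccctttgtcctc
Sesn1, the later of its annotated starts, chr10:41887189-41887438, plus strand: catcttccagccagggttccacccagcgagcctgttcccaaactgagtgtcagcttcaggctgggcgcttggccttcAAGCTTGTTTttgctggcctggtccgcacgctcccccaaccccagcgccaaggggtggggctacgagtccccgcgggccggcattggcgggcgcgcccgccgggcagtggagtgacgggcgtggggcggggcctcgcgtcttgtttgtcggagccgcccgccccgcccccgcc
Aen, chr7:78895927-78895956, plus strand: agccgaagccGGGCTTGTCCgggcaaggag
The unit began 186 bases before the start of Mdm2, 185 before that of Ccng1, 40 before that of Gadd45a and 173 before this start of Sesn1. In Aen it began 121 bases before the later start. A full element, read here as a pair of units with a spacer of at most 13 bases, was in none of the members' windows and in 0.0731% of all promoters. Units and full elements were counted only where every base matched the consensus, so elements with a mismatch, in these windows or others, were not counted. The p53 elements best known in Mdm2 and Gadd45a lie in introns, outside these windows. A further 56 genes with a promoter came from lists of p53 pathway genes and of relatives of the members. Of these, 9 (16.1%) held a unit, against 9.55% of all genes. Of their windows 1, that of Cdkn1a, held a full element.

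Array medians of the linear intensities ran from 139.7 to 151.3. Tests were run on log2(intensity + 16), and a gene was called changed at an adjusted p under 0.05 over all 12828 genes tested (limma, Benjamini-Hochberg), each represented by its brightest probe set. Of the 20 probe sets, 17 passed the filter on dim signal and stood for 8 genes, and Perp did not pass it. The 7 pre-B markers reported here (Cd79a, Cd79b, Vpreb1, Igll1, Pax5, Ebf1 and Blnk) passed the filter, with summed intensities of 39024 to 47658 in IL7hi, 57271 to 60783 in IL7lo and 41539 to 44753 in +IRF4. Of 19 stromal markers, 15 passed the filter, and their summed intensity was 8611, 37112 and 22467 in the IL7hi arrays, 5110, 11024 and 9084 in the IL7lo arrays, and 26111, 5028 and 6672 in the +IRF4 arrays. Markers of T cells (4 of 7 passing) and myeloid cells (5 of 9) had lower sums, at most 1998 and 1013, and 0 of 5 erythroid markers passed. IL7hi replicate 1 and +IRF4 replicate 3 stood apart with the lowest 18S ribosomal RNA signal (6.53 and 6.29 on the log2 scale, against 7.58 to 8.69 in the other 7 arrays). An Irf4 probe set rose with IRF4 put back (log2 difference 2.45, adjusted p = 0.000861 over all probe sets), while a brighter one fell (-0.40, adjusted p = 0.0438). The 2 Irf8 probe sets had mean intensities of 2922 and 3047 in these cells, and the brighter was higher in IL7lo than in IL7hi (0.43, adjusted p = 0.0433). Where the Irf4 and Irf8 probe sets lie relative to the deletions is not known here, so they do not check the genotype.

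When IL-7 was low, 5 of the 8 tested target genes changed. Trp53inp1, Gadd45a, Sesn1 and Mdm2 rose, by 2.85-fold, 1.60-fold, 1.44-fold and 1.34-fold, and Aen fell to 0.571 of its level in high IL-7. Ccng1, Zmat3 and Phlda3 did not pass the test by their brightest probe sets. Of all genes tested, 37.3% were called in this comparison, 17.8% higher and 19.5% lower, so a changed gene was common there. The median log2 difference of the 8 genes was 0.28, against 0.02 for all genes.

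With IRF4 put back in high IL-7, 2 of the 8 were called, Trp53inp1 and Gadd45a, both higher, by 1.64-fold and 1.46-fold. Of all genes tested, 2.93% were called in this comparison, 1.92% higher and 1.01% lower. The median of the 8 genes was 0.17, against -0.01 for all genes. Since both comparisons use the same high IL-7 arrays, the direct comparison of IRF4 with low IL-7 is the one that tests their difference. There 3 of the 8 were called, Aen higher and Trp53inp1 and Sesn1 lower with IRF4, where 36.3% of all genes were called, 18.6% higher and 17.7% lower.

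**Figure D1:**
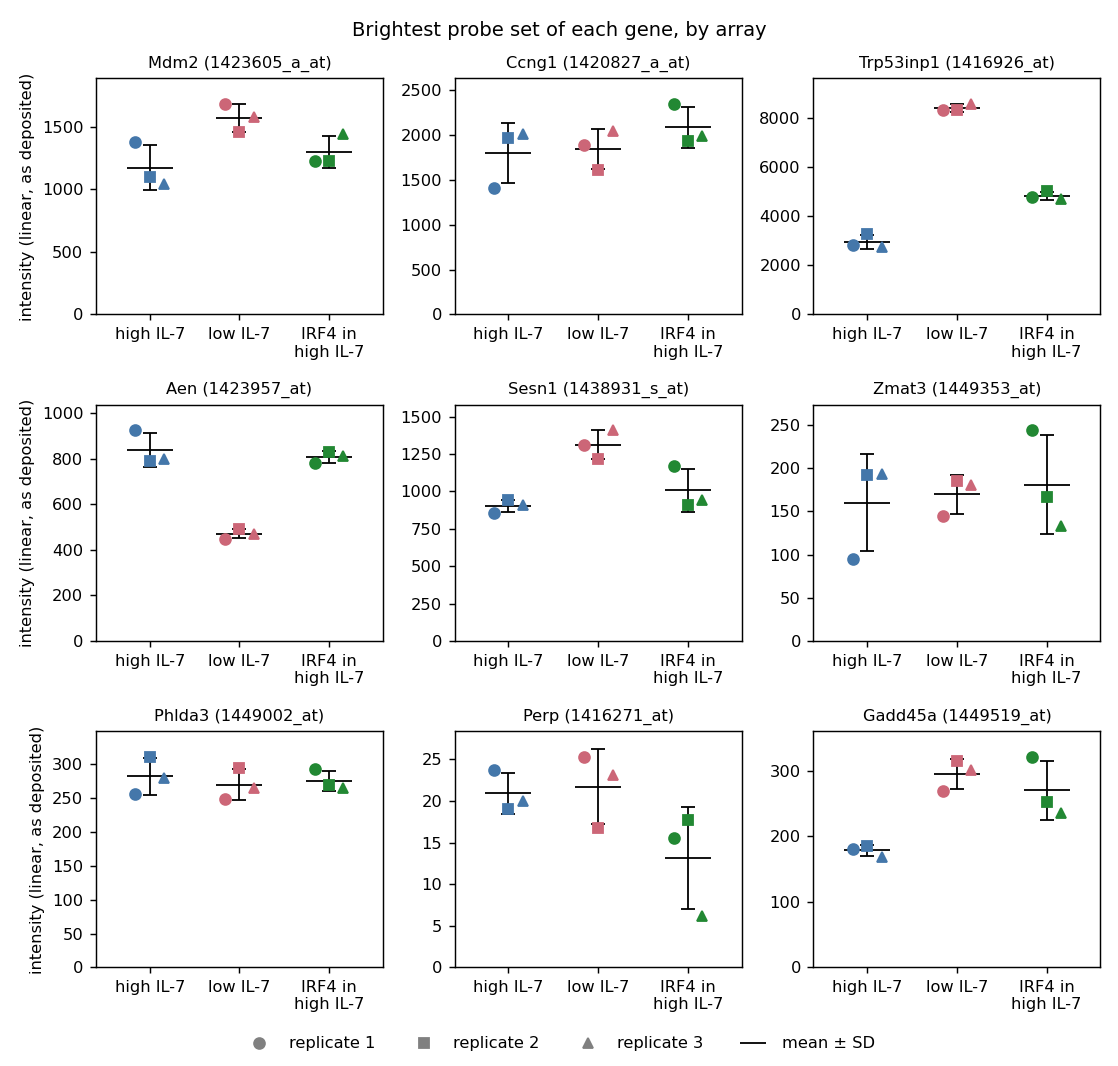
Linear intensity (y axis, from 0, as deposited) of the brightest probe set of each of the 9 measured genes in the 3 groups (x axis), with symbols for replicates and bars for the mean ± SD. Trp53inp1 forms 3 separate bands, Aen is low only in the low IL-7 arrays, and Gadd45a is lowest in all 3 high IL-7 arrays.

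Mdm2 is both the chief inhibitor of p53 and its target. Its brightest probe set, 1423605_a_at, read 1377, 1095 and 1040 in IL7hi, 1683, 1457 and 1574 in IL7lo, and 1227, 1226 and 1444 in +IRF4. The IL7lo arrays were all above the IL7hi arrays, and the +IRF4 arrays overlapped with the IL7hi arrays. The rise in IL7lo was 0.43 (SE 0.12, adjusted p = 0.0159), and the difference in +IRF4 was 0.15 (95% interval -0.11 to 0.42, adjusted p = 0.609). +IRF4 against IL7lo gave -0.27 (adjusted p = 0.1). The rise in IL7lo was lost without IL7hi replicate 2 (adjusted p = 0.0566) or 3 (0.0723), or without IL7lo replicate 1 (0.0527) or 3 (0.0510). Without the 3 arrays highest in stromal markers it was 0.19 (adjusted p = 0.447). That fit leaves a single IL7hi array, replicate 1, which stood apart in 18S signal, and 2 +IRF4 arrays, and it assumes that the lone array varies like those of the other groups. The second Mdm2 probe set, 1427718_a_at, differed by 0.31 in IL7lo (adjusted p = 0.0504 over all probe sets), and the third, 1457929_at, which is below the filter, by 0.06 (adjusted p = 0.646).

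Ccng1 encodes cyclin G1, a p53 target that works with a phosphatase on Mdm2. Its 3 probe sets did not tell the same story. The brightest, 1420827_a_at, read 1410, 1968 and 2012 in IL7hi, 1883, 1608 and 2038 in IL7lo and 2346, 1927 and 1983 in +IRF4, and the groups overlapped. Its log2 difference in IL7lo was 0.05 (95% interval -0.27 to 0.37, adjusted p = 0.832). Another probe set, 1450016_at, read 793, 742 and 816 in IL7hi, 596, 535 and 593 in IL7lo and 856, 820 and 884 in +IRF4. All 3 IL7lo arrays were below every other array, and the +IRF4 arrays were all above the IL7hi arrays. This probe set fell by 0.44 in IL7lo (adjusted p = 0.00442 over all probe sets) and was 0.56 higher in +IRF4 than in IL7lo (adjusted p = 0.000901), while its difference between +IRF4 and IL7hi was 0.12 (adjusted p = 0.647). The remaining probe set, 1450017_at, gave -0.15 in IL7lo (adjusted p = 0.426) and was 0.36 higher in +IRF4 than in IL7lo (adjusted p = 0.0450).

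Trp53inp1 encodes a stress-induced nuclear protein that acts with p53 in arrest and cell death and also takes part in autophagy. It had the largest change of the 8 genes in both comparisons with IL7hi. Its brightest probe set, 1416926_at, read 2827, 3286 and 2755 in IL7hi, 8328, 8337 and 8591 in IL7lo, and 4774, 5028 and 4698 in +IRF4. The groups formed 3 bands with no overlap, IL7lo at the top and +IRF4 in between. The rise was 1.51 in IL7lo (SE 0.07, adjusted p = 2.84e-07) and 0.71 in +IRF4 (SE 0.07, adjusted p = 0.000257). +IRF4 against IL7lo gave -0.80 (adjusted p = 1.20e-05), so each neighbouring pair of levels differed beyond the spread. In IL7lo the size of its change exceeded that of 97.9% of all genes tested, and in +IRF4 that of 97.7%.

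The second Trp53inp1 probe set, 1416927_at, read 220, 279 and 215 in IL7hi, 636, 572 and 745 in IL7lo, and 363, 333 and 362 in +IRF4. It showed the same order of groups, again without overlap. Its rise in IL7lo was 1.39 (adjusted p = 1.26e-05 over all probe sets), and its difference in +IRF4, 0.55, missed the threshold (adjusted p = 0.0606).

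Sesn1 encodes sestrin 1, which restrains growth signalling through mTORC1 and protects against oxidants. Its brightest probe set, 1438931_s_at, read 858, 941 and 912 in IL7hi, 1314, 1218 and 1410 in IL7lo and 1168, 906 and 946 in +IRF4. The IL7lo arrays were above all others, and +IRF4 replicates 2 and 3 lay close to the level of IL7hi. Sesn1 rose by 0.53 in IL7lo (SE 0.11, adjusted p = 0.00289) and was lower in +IRF4 than in IL7lo (-0.39, adjusted p = 0.0179), and the difference between +IRF4 and IL7hi was 0.15 (95% interval -0.10 to 0.39, adjusted p = 0.597). The call between +IRF4 and IL7lo was lost without IL7lo replicate 3 (adjusted p = 0.0802), +IRF4 replicate 2 (0.0767) or +IRF4 replicate 3 (0.0544). It was also lost without the 2 arrays lowest in 18S signal (-0.35, adjusted p = 0.0508). The 3 other Sesn1 probe sets were also higher in IL7lo: 1444376_at rose by 0.28 (adjusted p = 0.0132 over all probe sets), while 1433711_s_at (0.41, adjusted p = 0.0510) and 1454699_at (0.33, adjusted p = 0.111) missed the threshold.

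Gadd45a encodes a small stress protein that binds cell cycle and repair proteins and is switched on by DNA damage. Its single probe set, 1449519_at, read 181, 186 and 169 in IL7hi, 270, 314 and 301 in IL7lo, and 322, 253 and 236 in +IRF4. Both other groups lay wholly above IL7hi, and they overlapped each other. Gadd45a rose by 0.67 in IL7lo (SE 0.11, adjusted p = 0.00084) and by 0.55 in +IRF4 (SE 0.11, adjusted p = 0.0293), and +IRF4 differed from IL7lo by -0.13 (95% interval -0.38 to 0.13, adjusted p = 0.419). The rise in +IRF4 was close to the threshold. It was lost with only the 2 groups in the fit (adjusted p = 0.0828), without IL7hi replicate 1 (adjusted p = 0.0595), 2 (0.0647) or 3 (0.139), without IL7lo replicate 3 (0.0582), which enters only through the shared spread, and without +IRF4 replicate 2 (0.0698). +IRF4 replicate 1, the array highest in Gadd45a, was also the +IRF4 array highest in stromal markers, and without the 3 arrays highest in those markers, with 1 IL7hi array left, the difference was 0.40 (adjusted p = 0.258).

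Aen encodes a nuclease that p53 switches on during apoptosis, and it was the tested member that fell. Its brightest probe set, 1423957_at, read 926, 790 and 801 in IL7hi, 450, 491 and 472 in IL7lo, and 782, 833 and 813 in +IRF4. The IL7lo arrays were far below the rest, and the +IRF4 arrays fell within or just below the range of IL7hi. Aen fell by 0.81 in IL7lo (SE 0.09, adjusted p = 5.00e-05) and was 0.76 higher in +IRF4 than in IL7lo (adjusted p = 9.39e-05). Its difference between +IRF4 and IL7hi was -0.05 (95% interval -0.25 to 0.15, adjusted p = 0.858).

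The probe set 1450506_a_at read 354, 330 and 324 in IL7hi, 143, 143 and 136 in IL7lo, and 316, 330 and 296 in +IRF4. It showed a deeper fall of Aen in IL7lo, by 1.17 (adjusted p = 3.09e-06 over all probe sets). Another, 1437373_at, fell by 0.32 (adjusted p = 0.0171), and the dimmest, 1451186_at, which is below the filter, differed by -0.19 (adjusted p = 0.189). The 4 Aen probe sets were therefore all lower in IL7lo, by sizes that ranged from -1.17 to -0.19.

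Phlda3, which blocks AKT by competing for membrane lipids, read 257, 311 and 279 in IL7hi, 249, 294 and 265 in IL7lo and 292, 269 and 265 in +IRF4. The 3 groups overlapped. Its differences were -0.06 in IL7lo (95% interval -0.28 to 0.15, adjusted p = 0.663) and -0.03 in +IRF4 (95% interval -0.25 to 0.19, adjusted p = 0.925). Perp, a membrane protein of p53-driven apoptosis and of epithelial junctions, read 6.19 to 25.3 in the 9 arrays, far below the filter of 106.5. Its differences, 0.03 in IL7lo and -0.36 in +IRF4 (adjusted p = 0.932 and 0.350 over all probe sets), rest on a signal that was not shown to be above background.

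Zmat3 encodes a zinc finger protein that binds RNA. It read 95.05, 192 and 194 in IL7hi, 144, 185 and 181 in IL7lo and 244, 166 and 133 in +IRF4. The spread within groups was as wide as between them, and the differences were 0.13 in IL7lo (95% interval -0.43 to 0.69, adjusted p = 0.733) and 0.18 in +IRF4 (95% interval -0.38 to 0.74, adjusted p = 0.795). Within each group its highest and lowest arrays followed the stromal marker sums in part: IL7hi replicate 1 was lowest in both Zmat3 and stromal signal of its group, and +IRF4 replicate 1 was highest in both. IL7hi replicate 1 and +IRF4 replicate 3, the lowest Zmat3 arrays of their groups, were also those lowest in 18S signal. The part of stromal cells or RNA quality in these values was not tested, and in bulk RNA fewer cells of a type and less RNA per cell cannot be told apart. Without the 3 arrays highest in stromal markers, Zmat3 differed by 0.74 in IL7lo (adjusted p = 0.00439), but there the only IL7hi array is replicate 1, the lowest of its group in Zmat3, and the spread comes from the other groups. Without the 2 arrays lowest in 18S it was -0.17 (adjusted p = 0.428).

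**Figure D2:**
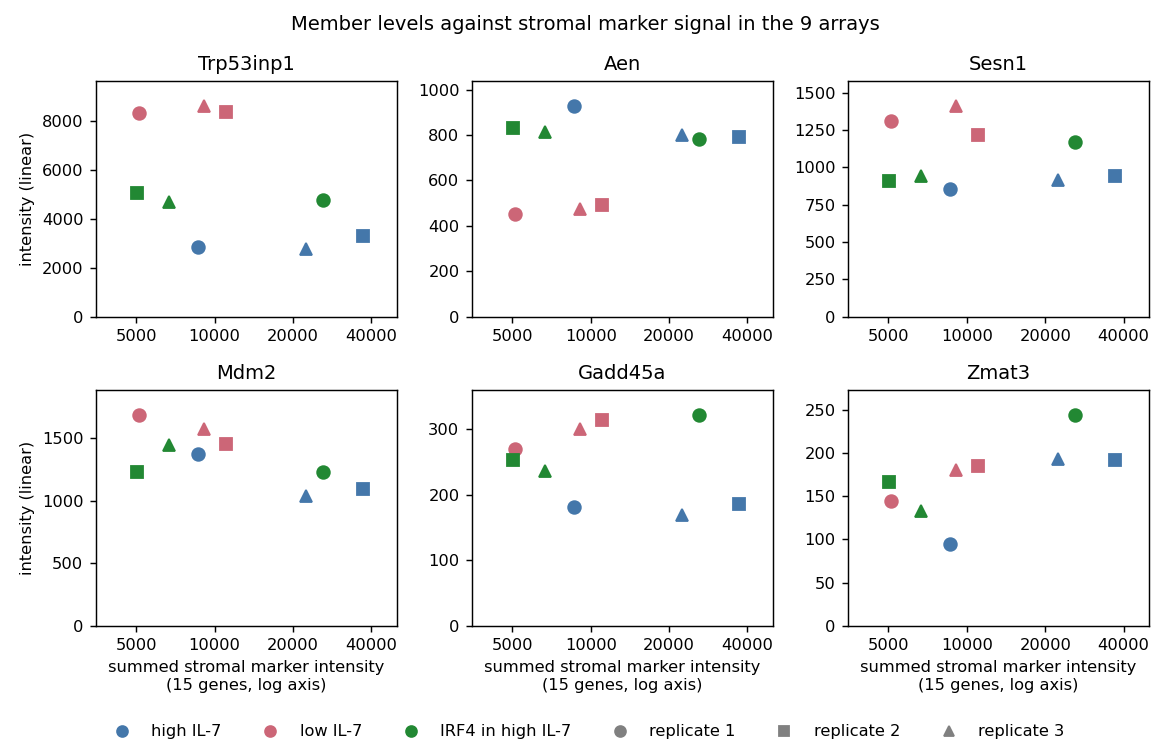
Linear intensity (y axis, from 0) of 6 members against the summed intensity of 15 stromal marker genes (x axis, log scale) in each of the 9 arrays, coloured by group with a symbol for each replicate. The 3 groups stay apart for Trp53inp1, the low IL-7 arrays (stromal sums up to 11024) lie below the rest for Aen, and Zmat3 is lowest in IL7hi replicate 1 (stromal sum 8611) and highest in +IRF4 replicate 1 (26111).

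Of the 15 stromal markers tested, 4 fell in low IL-7 and 11 did not pass the test (median -1.49), where 19.5% of all genes fell. Of the 7 pre-B markers, 4 rose (median 0.41), where 17.8% of all genes did. Their part in the members' changes was not tested. Without the 3 arrays highest in stromal markers, both comparisons with IL7hi rest on 1 IL7hi array, with the spread taken from the other groups. The log2 differences in low IL-7 were then 1.57 for Trp53inp1, -0.95 for Aen, 0.60 for Sesn1 and 0.66 for Gadd45a, and that of Trp53inp1 with IRF4 was 0.78. In that fit 5 of the 8 members were called in low IL-7, with Zmat3 called and Mdm2 not, as were 3677 of all 12828 genes. For IRF4 against high IL-7, 1 member and 427 of all genes were called.

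Over all 20 probe sets, with the test adjusted over all 45037 probe sets other than controls, 10 were called in low IL-7, 6 higher and 4 lower. The 6 were both of Trp53inp1, 2 of Sesn1, 1 of Mdm2 and that of Gadd45a, and the 4 were 3 of Aen and 1 of Ccng1. Of all probe sets, 23.5% were called in this comparison, 12.1% higher and 11.3% lower. With IRF4, 2 of the 20 were called, 1 of Trp53inp1 and that of Gadd45a, where 1.66% of all probe sets were (0.953% higher and 0.711% lower). Between IRF4 and low IL-7, 8 of the 20 were called, 5 higher and 3 lower, where 24.7% of all were (10.7% higher and 14% lower). Across the 9 arrays, the 2 Trp53inp1 probe sets had log2 values with r = 0.98, the 4 of Aen r from 0.75 to 0.99 and the 3 of Ccng1 r from 0.30 to 0.80, as a description of arrays that share the group differences.

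**Figure D3:**
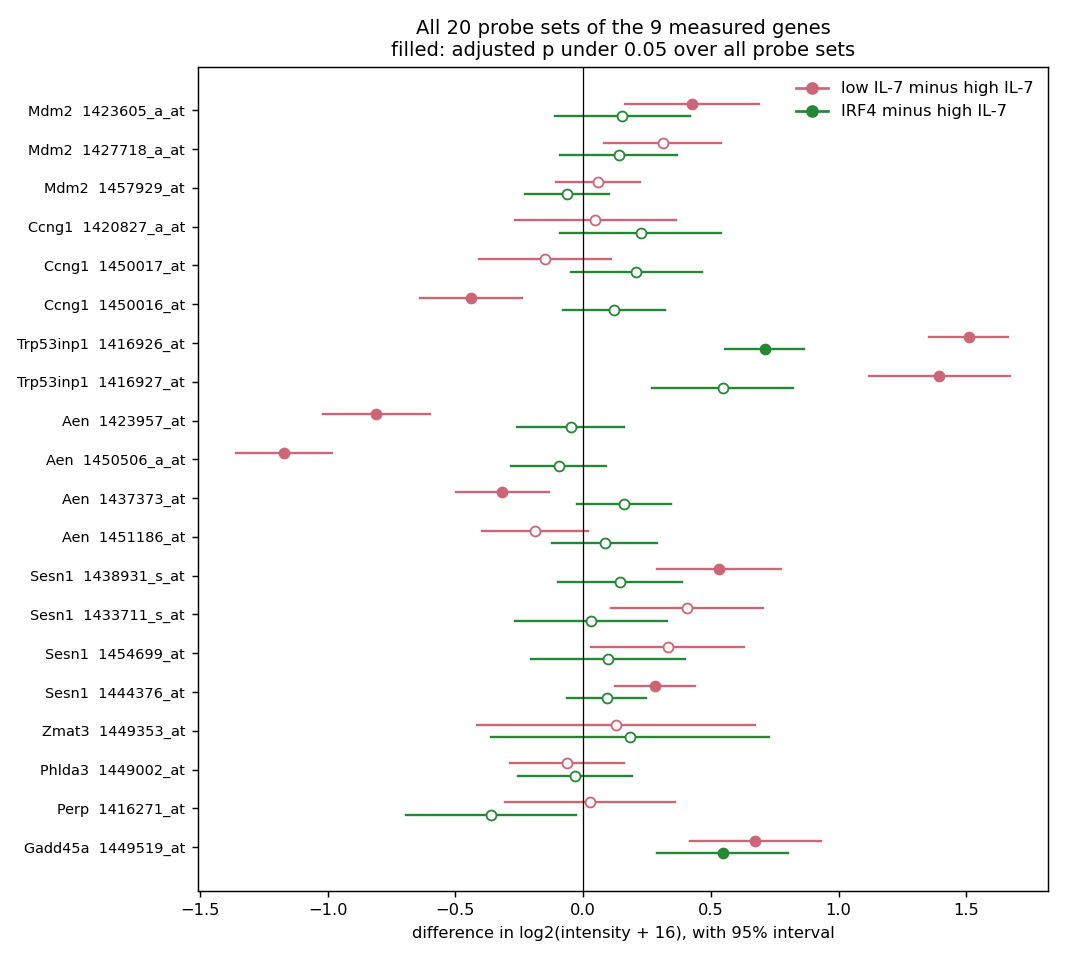
Difference in log2(intensity + 16) (x axis) with its 95% interval for all 20 probe sets (y axis), for low IL-7 minus high IL-7 and IRF4 minus high IL-7, filled where the adjusted p over all probe sets is under 0.05. The Trp53inp1 pair lies farthest right and Aen 1450506_a_at farthest left, at -1.17, both in low IL-7, and the 3 Ccng1 probe sets spread from 0.05 to -0.44.

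Other genes of the p53 pathway, together with a list of relatives of the members, were taken as 7 lists. They held 68 genes in all, of which 57 were tested. In low IL-7, 15 of the 57 rose and 6 fell, where 17.8% of all genes rose and 19.5% fell. The median was 0.08, against 0.02 for all genes. The share called in both directions together was near that of all genes, 37.3%. Without the 3 arrays highest in stromal markers 1 IL7hi array is left, so no count of these genes is given for that fit. With IRF4, 3 of the 57 rose (median -0.03), where 1.92% of all genes did. Of these 3, 2 were in the list of relatives of the members. The count of listed genes called moved with single arrays, as did that of all genes, 376 in the main fit. The listed count was 0 without IL7hi replicate 3 (204 of all genes called) or +IRF4 replicate 2 (191), and 1 without IL7lo replicate 3 (263). Without +IRF4 replicate 1 it was 9, of which 4 were higher and 5 lower, where 615 of all genes were called.

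Of the 16 genes that control p53 or act in its modification, 4 rose in low IL-7 and 4 fell, where 17.8% of all genes rose and 19.5% fell. The acetyltransferase Ep300 (0.65, adjusted p = 0.000137), the p53 ubiquitin ligase Rchy1 (0.62, adjusted p = 0.000661) and the p53 binding protein Ppp1r13b (0.58, adjusted p = 0.00182) rose, as did the p53 phosphatase Ppm1d (0.58). The 4 that fell were Atr (-0.54) and Atm (-0.48), the kinases that signal broken DNA to p53, the deubiquitinase Usp7 (-0.30) and Cdkn2a (-0.23), whose products include Arf, which blocks Mdm2. Ppm1d and these 4 are named after their values were seen. Cdkn2a was dim, with log2 means of 7.21 in IL7hi and 6.98 in IL7lo against a filter of 6.94. Which of its products the probe set reads was not examined. The call of Cdkn2a in low IL-7 was lost without IL7hi replicate 1 (adjusted p = 0.110) or 2 (0.0827), or without IL7lo replicate 1 (0.0891) or 2 (0.0974). Between IRF4 and low IL-7, 2 of the 16 were higher with IRF4 and 4 lower, where 18.6% of all genes were higher and 17.7% lower. The smallest adjusted p there were those of Ppp1r13b (-0.80, adjusted p = 0.000257), Ep300 (-0.50, 0.000973) and Cdkn2a (0.41, 0.0015).

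Where 17.8% of all genes rose in low IL-7, 4 of 9 cell cycle arrest targets did. They were Btg2, an antiproliferative gene (1.47, SE 0.26, adjusted p = 0.00113), Cdkn1a, which encodes the CDK inhibitor p21 (1.0, SE 0.18, adjusted p = 0.00114), Psrc1, a spindle protein (0.84, SE 0.12, adjusted p = 0.000307), and Cdc25c (0.35), a mitotic phosphatase that is named after its value was seen. The call of Cdc25c was lost without IL7hi replicate 2 (adjusted p = 0.0691) or IL7lo replicate 3 (0.0525), and without the 3 arrays highest in stromal markers, with 1 IL7hi array left, it was 0.22 (adjusted p = 0.353). Cdc25c and Psrc1 work in mitosis, which is not what the list's name says. Psrc1 was lower with IRF4 than in low IL-7 (-0.78, adjusted p = 0.000572). Cdkn1a stood at 10.10 ± 0.03 on the log2 scale in IL7hi, 11.10 ± 0.33 in IL7lo and 9.35 ± 0.32 in +IRF4 (mean ± SD, n = 3). It was thus highest in low IL-7 and lowest with IRF4. The difference between IRF4 and high IL-7, -0.75, missed the threshold (adjusted p = 0.0529) but passed it in 8 of 22 alternatives, among them without +IRF4 replicate 1 (-0.92, adjusted p = 0.00887), IL7lo replicate 1 (0.0419) or IL7lo replicate 2 (0.0375), whereas IRF4 against low IL-7 gave -1.75 (adjusted p = 3.10e-05).

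Of 6 tested apoptosis targets, Bid, which carries the death signal to mitochondria, fell by 1.36 in IL7lo (SE 0.14, adjusted p = 2.19e-05), and Apaf1, the core of the apoptosome, rose by 0.62 (adjusted p = 0.000916). Bid was 1.19 higher with IRF4 than in low IL-7 (adjusted p = 6.63e-05), and Apaf1 was lower there (-0.40, adjusted p = 0.0143). Bbc3 and Pmaip1, which encode the p53-induced death proteins PUMA and NOXA, differed by 0.01 and -0.06 in low IL-7 (adjusted p = 0.954 and 0.711), and are named after their values were seen.

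Of 6 tested repair and nucleotide targets, Rrm2b, the p53-induced ribonucleotide reductase subunit, rose by 0.97 in IL7lo (adjusted p = 4.46e-05). With IRF4 it was lower than in low IL-7 (-0.55, adjusted p = 0.00238), as were Polk (-0.47), a translesion polymerase, and Ddb2 (-0.39), which recognises UV damage. The call of Ddb2 there was lost without IL7lo replicate 1, any +IRF4 replicate, or IL7hi replicate 2 or 3 (adjusted p from 0.0536 to 0.110). Of 7 tested metabolism and stress targets, Ephx1, an epoxide hydrolase (0.82), and Gpx1, a glutathione peroxidase (0.56), rose in low IL-7, and Slc19a2, a thiamine transporter, fell (-0.60). Of these, Ephx1 was lower with IRF4 than in low IL-7 (-1.31), as was Ddit4, an inhibitor of mTORC1 (-1.05), and Slc19a2 was higher (0.53). The rise of Gpx1 was lost without IL7hi replicate 1 (adjusted p = 0.0522).

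Of 8 growth factor and other targets, Notch1 rose by 1.11 in IL7lo (adjusted p = 2.04e-05), and the receptor kinase Epha2 rose with IRF4 (0.37, adjusted p = 0.0472), a call that held without +IRF4 replicate 1 and was lost without any other array (adjusted p from 0.0618 to 0.176). Notch1 was lower with IRF4 than in low IL-7 (-1.02, adjusted p = 4.75e-05). Epha2 was higher there (0.27, adjusted p = 0.0323), a call that passed in 15 of 21 alternatives. Of 7 relatives of the members, Ccng2, the cyclin G paralog of Ccng1, rose by 1.54 in IL7lo (SE 0.11, adjusted p = 2.02e-06), and Trp53inp2, the paralog of Trp53inp1 that acts in autophagy, rose by 1.18 (SE 0.09, adjusted p = 4.50e-06). Both also rose with IRF4, Ccng2 by 0.51 (adjusted p = 0.0277) and Trp53inp2 by 0.50 (adjusted p = 0.0154). The Ccng2 call with IRF4 was lost without IL7hi replicate 1 (adjusted p = 0.0761) or 3 (0.118), IL7lo replicate 2 (0.0542) or 3 (0.0556), or +IRF4 replicate 1 (0.0543) or 2 (0.119), and that of Trp53inp2 without IL7hi replicate 3 (0.0922) or +IRF4 replicate 2 (0.0631). Both were lower with IRF4 than in low IL-7 (-1.03 and -0.68, adjusted p = 3.49e-05 and 0.000234), the order seen in Trp53inp1, while Sesn3, a relative of Sesn1, was lower there (-0.67, adjusted p = 0.0383), a call lost without any IL7lo replicate, IL7hi replicate 3, or +IRF4 replicate 2 or 3 (adjusted p from 0.0529 to 0.137). Between IRF4 and low IL-7, 5 of the 57 listed genes were higher with IRF4 and 16 lower, where 18.6% of all genes were higher and 17.7% lower, with a median of -0.13 against 0.00034 for all genes. The total of 21 was thus near the share of all genes called there, 36.3%.

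**Figure D4:**
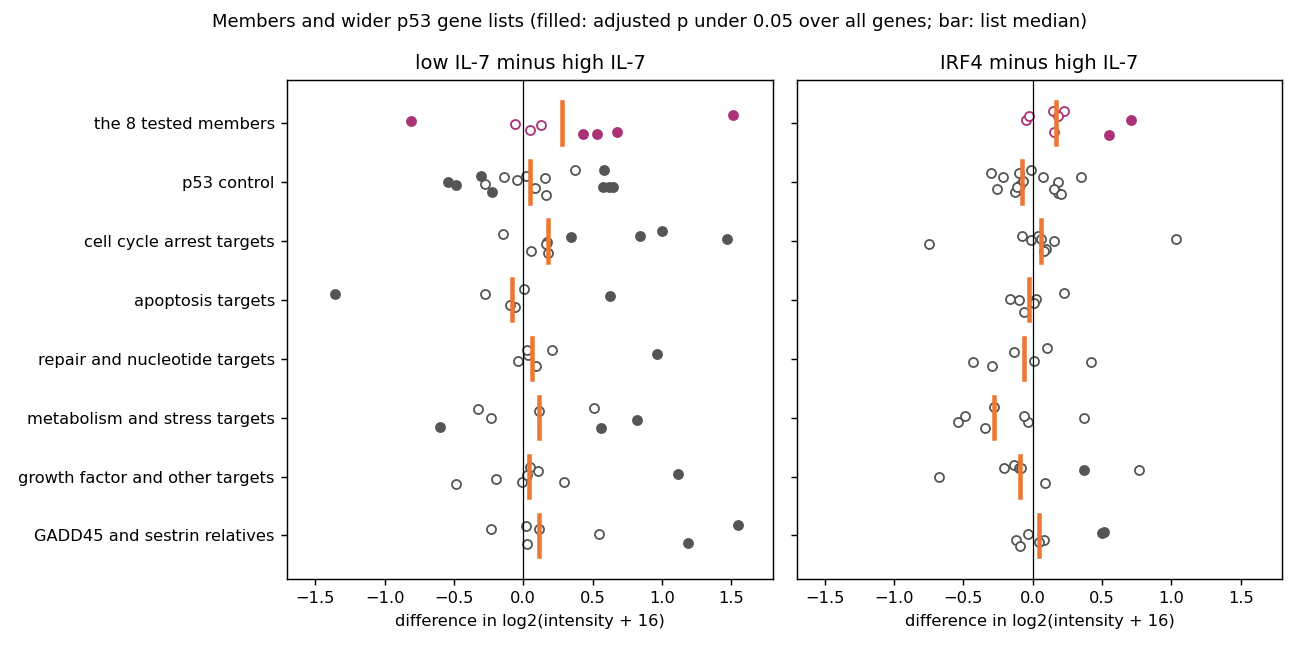
Difference in log2(intensity + 16) (x axis) of the 8 tested members and of the tested genes of 7 lists (rows), for low IL-7 (left) and IRF4 (right) against high IL-7. The lists hold p53 pathway genes and relatives of the members. Each point is a gene, filled where called over all genes, with a bar at each list's median. In low IL-7, called genes lie on both sides of 0, from Bid at -1.36 to Ccng2 at 1.54, and with IRF4 the only filled points among the lists are Epha2, Ccng2 and Trp53inp2.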

How the data were processed

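Total RNA of 9 samples was hybridised to Affymetrix mouse arrays after biotin labelling, per the labels' protocols. The authors deposited a table of linear intensity values for 45101 probe sets. The summary and scaling behind them are not given in the sources used here, and no detection p-values were used. Values from 0 to 24761.9 were used without further normalization. The platform annotation gave 1 symbol to 34945 probe sets, several to 932 and none to 9160, besides 64 controls.

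Values were taken as log2(intensity + 16), which understates changes of dim genes. Probe sets passed the filter when their mean lay at or above the 40th percentile (intensity 106.5). limma 3.58.1 in R 4.3.3 (lmFit, and eBayes with a trend) was fitted over all 9 arrays, once over genes and once over all non-control probe sets, with Benjamini-Hochberg adjustment. The fit was also run on simulated data with independent noise in each array, which cannot give the error rate of these arrays. Replicate arrays correlated with r from 0.986 to 0.996 and were counted separately. The members and lists were chosen with earlier results of these data known. Genes of lists were named by smallest adjusted p, up to 3 for each list and comparison. Of the listed cell type markers, 1 is not reported here. A further rule, to name genes most like Trp53, could not be applied.

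Replicate numbers come from the titles. Deviations from the group mean of arrays with the same number correlated at 0.54, 0.38 and 0.28 between high and low IL-7. Between high IL-7 and IRF4 they correlated at -0.35, -0.11 and -0.37. Arrays of high and low IL-7 with unlike numbers ran from -0.52 to 0.34, and those of high IL-7 and IRF4 from -0.26 to 0.40. The 0.40 was between IL7hi replicate 1 and +IRF4 replicate 3, the 2 arrays lowest in 18S signal. The labels do not say what a number marks, so whether the numbers pair arrays is not known, and the main fit did not use them. The block on replicate number is an alternative. Further alternatives were other pseudocounts, filters, scalings, probe set rules, variance models, array weights, only the 2 groups compared, and each array left out. Leaving out arrays high in stromal markers or low in 18S was added after seeing the data. Promoters were read from RefSeq (GRCm38.p6). Python 3.11.15 with matplotlib 3.10.9 made the figures.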

Additional observations from a re-analysis of the deposited data

How the results depend on the processing

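The calls of Trp53inp1, Aen, Sesn1 and Gadd45a in low IL-7, of Trp53inp1 with IRF4, and of Trp53inp1 and Aen between IRF4 and low IL-7 passed the threshold in all 22 alternatives, of which the one without the 3 arrays highest in stromal markers leaves 1 IL7hi array, assumed to vary like the other groups. With the replicate block, the members called stayed at 5, 2 and 3 for low IL-7, IRF4 against high IL-7 and IRF4 against low IL-7. In the same order, 4922, 437 and 4769 of all 12828 genes were called. The members' probe sets called were 12, 1 and 9, where 11028, 889 and 11589 of all 45037 probe sets were. The block ended the calls of Epha2 with IRF4 against high IL-7 (adjusted p = 0.0606) and of Sesn3 between IRF4 and low IL-7 (0.0524), made Cdkn1a with IRF4 against high IL-7 pass (0.0184), and changed no other call of a gene recomputed under it. For IRF4 against high IL-7, 1 member gene and 1 probe set were called with only the 2 groups compared, where 222 of all genes and 365 of all probe sets were. Without the 2 arrays lowest in 18S signal, a choice made after seeing the data, 1 probe set was called, where 460 of all were. With 1 array left out, that comparison gave 1 to 2 member genes and 1 to 2 probe sets. Over all features, 191 to 615 genes and 366 to 1054 probe sets were then called. Array weights gave 5 member genes and 13 probe sets for IRF4 against low IL-7. They raised the calls there to 7807 over all genes and from 11143 to 15312 over all probe sets. Of the 57 listed genes, the calls in low IL-7 went from 21 to 38 and those of IRF4 against low IL-7 from 21 to 39 with array weights. Over all 12828 genes, array weights raised the calls in low IL-7 from 4783 to 8263 and those of IRF4 against low IL-7 from 4651 to 7807. With 1 array left out the listed calls ran from 20 to 24 and from 16 to 25, and those over all genes from 3789 to 5122 and from 3566 to 4912. For IRF4 against high IL-7 the 3 calls became 6 after quantile normalization, 5 with the mean of probe sets, 22 with array weights, 0 with only the 2 groups compared and 0 to 9 with 1 array left out. The 376 calls over all genes became 450, 410, 3248, 222 and 191 to 615 in the same order.

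Signs turned only where the main difference did not pass the test. With 1 array left out, the low IL-7 difference ran from -0.12 to 0.14 for Ccng1, from -0.17 to 0.28 for Zmat3 and from -0.13 to 0.0056 for Phlda3. That of IRF4 against high IL-7 ran from -0.089 to 0.023 for Aen, from -0.12 to 0.36 for Zmat3 and from -0.093 to 0.038 for Phlda3, and that of IRF4 against low IL-7 from -0.17 to 0.23 for Zmat3 and from -0.01997 to 0.094 for Phlda3. As the mean of its probe sets, Ccng1 was -0.18 in low IL-7 and Aen 0.0059 with IRF4 against high IL-7. With array weights, Zmat3 was -0.061, -0.093 and -0.032 in the 3 comparisons and Aen 0.032 with IRF4 against high IL-7. Quantile normalization gave 0.0084 for Phlda3 there. Without the low 18S arrays, Ccng1 was -0.12 and Zmat3 -0.17 in low IL-7, and Aen 0.0196 with IRF4 against high IL-7. Without the stromal-high arrays, Phlda3 was 0.063, 0.055 and -0.0085 in the 3 comparisons, Mdm2 -0.049 with IRF4 against high IL-7 and Zmat3 -0.17 with IRF4 against low IL-7. In low IL-7, Bbc3 ran from -0.0078 to 0.031 with 1 array left out, and was -0.0072 with array weights and -0.032 with arrays scaled to the same median. Pmaip1 ran from -0.13 to 0.034 with 1 array left out, and was 0.00081 with array weights and 0.034 without the low 18S arrays. The cause was not tested. Ccng1 between IRF4 and low IL-7 was called as the mean of its probe sets (0.36, adjusted p = 0.0118), and Mdm2 there after quantile normalization (-0.33, adjusted p = 0.0229). Mdm2 was also called there with array weights (adjusted p = 0.00108), without IL7hi replicate 1 (0.0470) and without the low 18S arrays (0.0133). With 3 arrays a group and no detection p-values, small changes and dim probe sets such as that of Perp are measured with little precision.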
